A study of Canis lupus familiaris with 15 samples.

Results

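The folding genes HSPA5, PDIA3 and CALR and the transcription factor gene XBP1 were followed across 3 canine mammary tumour cell lines. They were taken by gene symbol, and each was read by 1 probe, so they are 4 of the 5246 named genes and 4 of the 22176 probes of a cDNA array. P114 was grown from an anaplastic carcinoma, CMT-U229 from a benign mixed tumour and CMT-U335 from an osteosarcoma, all of the mammary gland. The labels name no treatment or genetic change, and all 3 lines were harvested near confluence. Each of 15 arrays carried RNA from a pair of lines in different dyes, and each of the 3 pairs had 5 arrays. Each tumour type is represented by 1 line, so tumour type and line cannot be told apart.

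Secreted and membrane proteins enter the endoplasmic reticulum (ER) through the translocon as they are made, and there they are folded, glycosylated and cross-linked before they move on. HSPA5, also called BiP, is the Hsp70 chaperone of the ER lumen and holds the sensors of the unfolded protein response inactive until unfolded proteins draw it away. CALR is calreticulin, a calcium-binding lectin that retains glycoproteins for folding, and PDIA3, also called ERp57, is the disulphide isomerase that works bound to calreticulin and its membrane counterpart calnexin. XBP1 becomes an active transcription factor when the sensor IRE1 splices its mRNA. It then raises genes of folding, translocation and degradation and is needed for secretory cells such as plasma cells. A cDNA probe reads the summed XBP1 transcripts, so spliced and unspliced forms were not separated here.

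Values are log2 ratios of the line named first over the line named second. The numerator of the deposited ratios is not stated in the sources used here and was read as Cy5, so every direction below is likely and not settled. Turning it would reverse all signs together. In each pair, ratios as deposited correlated at 0.20 to 0.50 between arrays of the same dye order and at -0.35 to 0.00 between arrays of opposite order, over all probes. The table holds ratios and no intensities, so depth is unknown here and 5 arrays limit the precision. Array medians lay between -0.00671 and 0.0134.

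Every array is labelled a biological replicate, but the series design text speaks of dye swaps plus at least 1 biological replicate, so p-values measure only a spread that may in part be technical. Some arrays came in couples of opposite dyes with similar ratios in genes of small dye effect. They were replicates 1 with 3 and 2 with 5 for P114 over CMT-U229, and 2 with 3 and 4 with 5 for CMT-U229 over CMT-U335. If such a couple is 1 RNA hybridised again with exchanged dyes, a pair of lines holds 3 separate samples. The best couples of P114 over CMT-U335 were unclear. Markers of cell type ran as follows. The epithelial genes EPCAM and KRT18 were highest in P114, where EPCAM exceeded CMT-U335 by 3.55 and CMT-U229 by 1.80, while KRT8 exceeded CMT-U335 by 2.46 and was at -0.31 over CMT-U229, not called. The epithelial gene TJP1, the last of 4 measured of 7, was lower in P114 than in CMT-U335 (-0.35, adjusted p = 0.0204). Of 7 mesenchymal markers 6 were measured, of which 3 were called lower in P114 than in CMT-U335 (COL1A2 at -1.39, FBLN2 and ZEB1), 5 were called lower in CMT-U229 than in CMT-U335 (COL1A2 at -3.39), and 3 were called higher in P114 than in CMT-U229 (COL1A2 at 2.06). The part of these differences in the ratios below was not tested. Of 5 bone markers only SPP1 and SPARC were on the array. SPP1 was 4.12 higher in the carcinoma line P114 than in the osteosarcoma line CMT-U335. SPARC was 0.56 higher in P114 than in CMT-U335 and 1.33 higher than in CMT-U229. In CMT-U229 over CMT-U335 the 2 markers went opposite ways, at 2.58 (called) and -0.64 (not called). With the numerator read as Cy5, CMT-U335 was thus not the highest line in these markers, and they did not set it apart as bone.

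In P114 over CMT-U335, which sets the carcinoma line against the osteosarcoma line, PDIA3, XBP1 and HSPA5 rose. A gene was called when its adjusted p in limma, with Benjamini-Hochberg adjustment over all 5246 genes, was under 0.05. By that rule 3 of 4 genes were called higher, where 7.89% of all genes were called higher and 22.3% in either direction. The 4 genes were chosen with earlier results of these data known, so these shares only describe them.

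PDIA3 had log2 ratios of 1.22, 1.29, 1.18, 0.76 and 0.52 on replicates 1 to 5 of P114 over CMT-U335. All lay above 0, and replicates 1 to 3 lay close together above the other 2. Its mean was 0.99 ± 0.13 (SE, n = 5 arrays), a 1.99-fold difference with a 95% interval of 0.69 to 1.29 and adjusted p = 0.00179. That placed the isomerase above 98.1% of genes.

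XBP1 had log2 ratios of 0.57, 0.58, 0.81, 1.42 and 0.78 on the same arrays. Replicate 4 stood above the other 4, and none was near 0. Its mean was 0.83 ± 0.13 (SE, n = 5), or 1.78-fold, with an interval of 0.53 to 1.14 and adjusted p = 0.00382.

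HSPA5 had log2 ratios of 0.46, 1.28, 0.44, 0.72 and 0.41. Replicate 2 was the highest and 3 of the others lay within 0.05 of each other. Its mean was 0.66 ± 0.14 (SE, n = 5), or 1.58-fold, with an interval of 0.34 to 0.98 and adjusted p = 0.0121.

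CALR had log2 ratios of 0.75, -0.05, 1.05, 0.60 and -0.02, so 3 arrays lay well above 0 and replicates 2 and 5 lay at 0. Its mean of 0.46 ± 0.17 (SE, n = 5), with an interval of 0.06 to 0.87, was not called (adjusted p = 0.1). The lectin passed where all 15 arrays were fitted together, at 0.46 with adjusted p = 0.0297 with a mean per pair and at 0.48 with adjusted p = 0.00421 in the fit of the loop described below. PDIA3, XBP1 and HSPA5 were above 0 on all 5 arrays, as were 617 of the 5246 genes (11.8%).

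**Figure D1:**
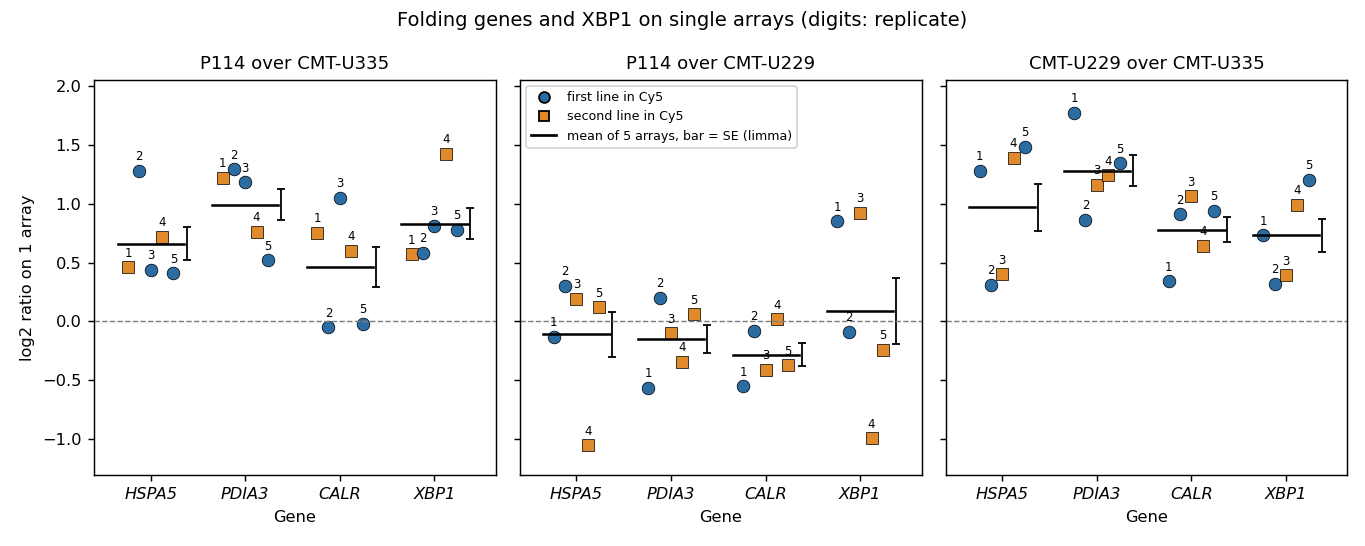
Log2 ratio of the line named first over the line named second (vertical axis) for each gene on each array, with the replicate number beside each point, circles where the first line was in Cy5 and squares where the second line was, and the mean with its SE from limma. In P114 over CMT-U335 and in CMT-U229 over CMT-U335 PDIA3, XBP1 and HSPA5 lie above 0 on all 5 arrays, whereas in P114 over CMT-U229 XBP1 spreads from -0.99 to 0.92.

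When CMT-U229 was set over CMT-U335, that is, the benign-tumour line over the osteosarcoma line, all 4 genes rose. The background in this pair was 8.77% of genes called higher and 17.3% in either direction.

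PDIA3 again had the largest ratio of the 4 genes, with 1.77, 0.86, 1.16, 1.24 and 1.34 on replicates 1 to 5. Its lowest array, replicate 2, was still well above 0. The mean was 1.28 ± 0.13 (SE, n = 5), or 2.42-fold, with an interval of 0.98 to 1.57 and adjusted p = 0.000996, above 99% of genes.

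HSPA5 had log2 ratios of 1.28, 0.31, 0.40, 1.39 and 1.48. These fell into a low set of replicates 2 and 3 and a high set of the other 3, and all were above 0. Its mean was 0.97 ± 0.20 (SE, n = 5), or 1.96-fold, with an interval of 0.49 to 1.45 and adjusted p = 0.0177. The call was lost without replicate 4 (0.87, adjusted p = 0.0542) or replicate 5 (0.84, adjusted p = 0.0626).

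CALR had log2 ratios of 0.34, 0.91, 1.06, 0.64 and 0.94, the lowest on replicate 1, where PDIA3 was highest. Its mean was 0.78 ± 0.11 (SE, n = 5), or 1.71-fold, with an interval of 0.51 to 1.05 and adjusted p = 0.00432.

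XBP1 had log2 ratios of 0.73, 0.32, 0.39, 0.99 and 1.20, with replicates 2 and 3 lowest and replicates 4 and 5 highest, as for HSPA5. Its mean was 0.73 ± 0.14 (SE, n = 5), or 1.65-fold, with an interval of 0.39 to 1.06 and adjusted p = 0.0134.

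With the apparent dye swaps of this pair averaged, which leaves 3 values, PDIA3 kept its call (1.36, adjusted p = 0.0156). HSPA5 (1.02, adjusted p = 0.0651), CALR (0.70, adjusted p = 0.0542) and XBP1 (0.73, adjusted p = 0.0614) did not.

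In P114 over CMT-U229, which sets the carcinoma line against the benign-tumour line, 0 of 4 genes were called by limma or by a SAM-type test, and CALR alone had an unadjusted p under 0.05. The background was 3.32% of genes called higher and 7.3% in either direction. A missed threshold does not show equal levels, and the intervals below give what these arrays allow.

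CALR had log2 ratios of -0.55, -0.08, -0.41, 0.02 and -0.37, with 4 of 5 arrays below 0. Its mean was -0.28 ± 0.10 (SE, n = 5), with an interval of -0.52 to -0.03, unadjusted p = 0.0315 and adjusted p = 0.194.

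PDIA3 had log2 ratios of -0.56, 0.20, -0.10, -0.34 and 0.06, on either side of 0. Its mean was -0.15 ± 0.12 (SE, n = 5), with an interval of -0.44 to 0.14 and adjusted p = 0.644.

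HSPA5 had log2 ratios of -0.13, 0.30, 0.19, -1.05 and 0.12. A lone array, replicate 4, lay far below the other 4. The mean of -0.11 ± 0.19 (SE, n = 5), with an interval of -0.57 to 0.35 and adjusted p = 0.87, became 0.12 without that array.

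XBP1 varied most in this pair, with log2 ratios of 0.85, -0.09, 0.92, -0.99 and -0.24. Replicates 1 and 3 were high in P114, replicates 2 and 5 were near 0 or below it, and replicate 4 was low. These levels lay close within the apparent dye swaps, where values differed by 0.07 within 1 couple and by 0.16 within the other, against a range of 1.91 over the pair. XBP1 (SD 0.80 in this pair) was itself among the 208 variable genes by which these couples were picked, so small gaps are part of the choice. The couples averaged 0.88 and -0.16, and the array outside them stood at -0.99. Over 5 arrays the mean was 0.09 ± 0.28 (SE, n = 5), with an interval of -0.56 to 0.74 and adjusted p = 0.931. It was -0.10 without replicate 1, -0.12 without replicate 3 and -0.09 with couples averaged, so its sign was not fixed by these arrays.

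A similar split was seen for HSPA5 in CMT-U229 over CMT-U335. There the couple of replicates 2 and 3 averaged 0.35 and the couple of replicates 4 and 5 averaged 1.44, with a gap of 0.09 inside each and a range of 1.17 over the pair. For XBP1 in the same pair these couples averaged 0.35 and 1.09, with gaps of 0.07 and 0.22. Other members of the 4 followed the couples less closely. In P114 over CMT-U229 PDIA3 differed by 0.46 within a couple, of a range of 0.76, and CALR by 0.29 of 0.57, and in CMT-U229 over CMT-U335 CALR differed by 0.30 of 0.72. The couples were themselves picked from variable genes of these arrays, and the part of shared RNA in the gaps was not tested.

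The 3 lines were then placed on one scale per gene by a fit of the whole loop over 15 arrays, relative to the mean of the lines. The fit uses the same arrays as the pairs and is no further support for them. HSPA5 stood at 0.18 in P114, 0.36 in CMT-U229 and -0.54 in CMT-U335, each ± 0.09 (SE). PDIA3 stood at 0.28 in P114, 0.47 in CMT-U229 and -0.76 in CMT-U335, each ± 0.06. CMT-U335 thus held the lowest level of both genes.

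CALR stood at 0.06 in P114, 0.35 in CMT-U229 and -0.41 in CMT-U335, each ± 0.07. XBP1 was the gene of the 4 with its highest level in P114, at 0.31 against 0.21 in CMT-U229 and -0.52 in CMT-U335, each ± 0.10. The order of P114 and CMT-U229 was not resolved for any of the 4: in the loop fit their difference had adjusted p = 0.57 for HSPA5, 0.275 for PDIA3, 0.0988 for CALR and 0.804 for XBP1.

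**Figure D2:**
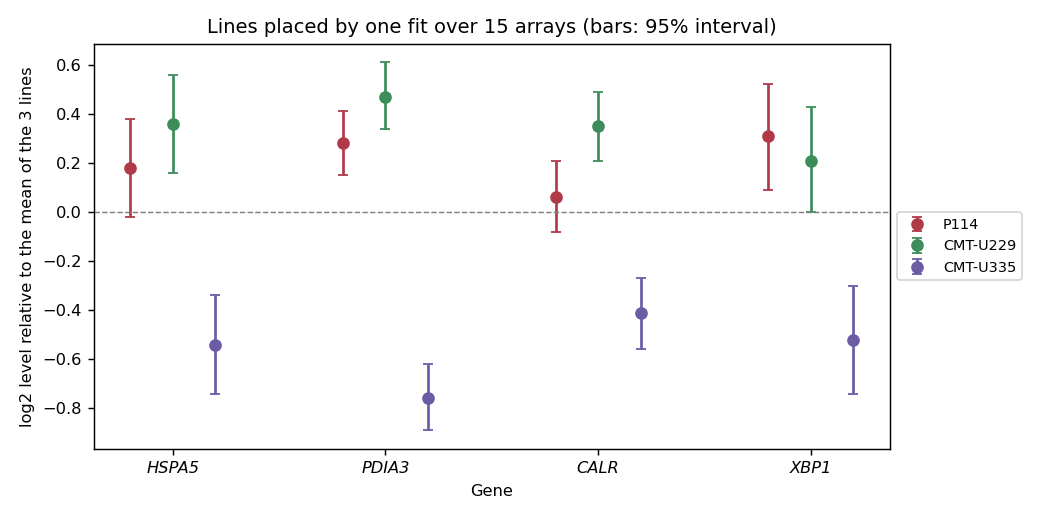
Level of each gene in P114, CMT-U229 and CMT-U335 on the log2 scale (vertical axis), relative to the mean of the 3 lines, from the fit of the loop over 15 arrays, with 95% intervals as bars. CMT-U335 lies lowest for each gene, from -0.76 for PDIA3 to -0.41 for CALR, and the intervals of P114 and CMT-U229 overlap for HSPA5, PDIA3 and XBP1 and touch at 0.21 for CALR.

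A loop also allows a check, since the direct ratio of P114 over CMT-U335 should equal the sum of the other 2 ratios. The direct ratio minus that sum was -0.20 ± 0.36 for HSPA5, -0.13 ± 0.24 for PDIA3, -0.04 ± 0.26 for CALR and 0.02 ± 0.39 for XBP1 (SE, limma over 15 arrays, adjusted p = 1 for each). By limma 0 of 5246 genes were called for a gap in the loop, and 17 had an unadjusted p under 0.05, where 262 would be 5%.

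Among themselves the 4 genes fell into loose couples over the 15 arrays. These correlations describe arrays that share lines and perhaps RNA, and they carry no test. HSPA5 and PDIA3 had r = 0.81, PDIA3 and CALR 0.74, and HSPA5 and XBP1 0.69. PDIA3 and XBP1 had 0.44, HSPA5 and CALR 0.39, and CALR and XBP1 0.28. Once each array was taken around the mean of its pair, which removes the differences between lines, HSPA5 and PDIA3 had r = 0.57 and HSPA5 and XBP1 0.56. PDIA3 and CALR then had r = 0.03, HSPA5 and CALR -0.46, CALR and XBP1 -0.26, and PDIA3 and XBP1 -0.10. With the pairs pooled, the chaperone HSPA5 therefore moved with XBP1 and with PDIA3 from array to array, but PDIA3 and XBP1 did not move together. Calreticulin did not rise and fall with any of them. HSPA5 and XBP1 did not share their extremes in every pair. In P114 over CMT-U335 HSPA5 was highest on replicate 2 (1.28), where XBP1 was at 0.58. In P114 over CMT-U229 both were lowest on replicate 4 (-1.05 and -0.99). There HSPA5 was highest on replicate 2 (0.30), where XBP1 was at -0.09. In CMT-U229 over CMT-U335 both were lowest on replicate 2 (0.31 and 0.32) and highest on replicate 5 (1.48 and 1.20). PDIA3 had the larger ratio of PDIA3 and CALR on 5 of 5 arrays of P114 over CMT-U335 and on 4 of 5 of CMT-U229 over CMT-U335. That difference was not tested.

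The wider secretory pathway was described by 7 lists holding 154 genes, of which 77 were on the array. Without HSPA5, PDIA3, CALR and XBP1, 73 remained. For P114 over CMT-U335 13 of these 73 rose (17.8%, against 7.89% of all genes) and 6 fell (8.22%, against 14.4%). In P114 over CMT-U229 4 rose (5.48%, against 3.32%) and 3 fell (4.11%, against 3.98%). For CMT-U229 over CMT-U335 14 rose (19.2%, against 8.77%) and 5 fell (6.85%, against 8.58%). The lists' median ratio without the 4 genes stayed near that of all genes: 0.04, -0.01 and -0.00 in the 3 pairs in this order, against -0.02, -0.01 and -0.01. Counts are given without a test, and most measured list genes were called in no direction. The lists too were chosen with earlier results of these data known.

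Chaperones of the ER held 12 measured genes. Beside HSPA5, SERPINH1 rose in P114 over CMT-U335, at 0.94 ± 0.09 (SE, n = 5, adjusted p = 0.000601), and in P114 over CMT-U229, at 0.86 ± 0.08. SERPINH1, also called HSP47, is the collagen-specific chaperone, and it was at -0.01 ± 0.11 in CMT-U229 over CMT-U335, where HSPA5 was at 0.97. DNAJC1, a membrane-bound partner of BiP, fell to -0.33 ± 0.09 in P114 over CMT-U335, a call lost with a dye term. HSP90B1 (the Hsp90 of the ER) rose in CMT-U229 over CMT-U335 at 0.67 ± 0.16, as did CANX (calnexin) at 0.43 ± 0.10 and CLGN (calmegin) at 0.63 ± 0.11. These 3 calls were lost with the apparent dye swaps averaged. On replicates 1 to 5 of P114 over CMT-U335 HSP90B1 had 1.26, -0.13, 1.23, 0.61 and 0.23, a mean of 0.64 ± 0.21 that was not called (adjusted p = 0.0703). Its arrays ran high and low where those of CALR did.

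Of 12 measured isomerases and oxidases, PPIC, a prolyl isomerase of the cyclophilin family, went the other way from PDIA3 against CMT-U335. It fell to -1.96 ± 0.21 in P114 over CMT-U335 and to -1.18 ± 0.19 in CMT-U229 over CMT-U335 (SE, n = 5, adjusted p = 0.000754 and 0.00678). It was also lower in P114 than in CMT-U229, at -0.77 ± 0.13. PDIA5, a relative of PDIA3, rose in P114 over CMT-U335 at 0.32 ± 0.08 and in P114 over CMT-U229 at 0.78 ± 0.12. The peroxidase PRDX4 fell to -0.40 ± 0.09 in P114 over CMT-U335. The membrane-bound thioredoxin TMX3 fell to -0.57 ± 0.11 in P114 over CMT-U229 and rose at 0.42 ± 0.11 in CMT-U229 over CMT-U335. PDIA4, another isomerase, was at 0.40 ± 0.12 in P114 over CMT-U335 and 0.33 ± 0.09 in CMT-U229 over CMT-U335, with adjusted p = 0.0511 and 0.0507, and was not called.

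Glycosylation and the calnexin cycle held 12 measured genes, none of them among the 4. TUSC3, a subunit of the oligosaccharyltransferase, followed the lines most: 0.87 ± 0.15 in P114 over CMT-U335, -1.35 ± 0.10 in P114 over CMT-U229 and 1.96 ± 0.22 in CMT-U229 over CMT-U335, all called. STT3A, a catalytic subunit of that enzyme, rose at 0.68 ± 0.19 in P114 over CMT-U335 and 0.73 ± 0.18 in CMT-U229 over CMT-U335. DDOST, another subunit, rose at 0.33 ± 0.09 in P114 over CMT-U335 and at 0.49 ± 0.10 in P114 over CMT-U229. LMAN1, a lectin that carries glycoproteins out of the ER, fell to -0.66 ± 0.11 in P114 over CMT-U335 and -0.80 ± 0.11 in CMT-U229 over CMT-U335. The related lectin LMAN2 rose at 0.35 ± 0.09 and 0.41 ± 0.07 in these pairs. MLEC, malectin, rose at 0.37 ± 0.08 in P114 over CMT-U335, and the mannosyltransferase ALG2 fell to -0.48 ± 0.08 in CMT-U229 over CMT-U335.

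The translocon, signal peptidase and signal recognition particle held 22 measured genes, of which 6 rose (27.3%, against 7.89% of all genes) and 1 fell (4.55%, against 14.4%) in P114 over CMT-U335. SPCS3, a signal peptidase subunit, was at 0.85 ± 0.07 in P114 over CMT-U335 and 0.99 ± 0.07 in CMT-U229 over CMT-U335, both called. TRAM1, which helps chains into the membrane, was at 0.78 ± 0.08 and 0.88 ± 0.14 in these pairs, both called. In the signal recognition particle SRP14 rose at 0.61 ± 0.09 and 1.01 ± 0.11 and SRP72 at 0.72 ± 0.11 and 0.66 ± 0.15 in the same pairs, whereas SRP54 fell to -0.71 ± 0.10 in P114 over CMT-U335.

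SPCS2 (0.50 ± 0.08) and SSR2 (0.43 ± 0.12) also rose in P114 over CMT-U335, and SSR2 rose in P114 over CMT-U229 (0.42 ± 0.10). Of the 22, 5 rose in CMT-U229 over CMT-U335 (22.7%, against 8.77% of all genes) and 1 fell (4.55%, against 8.58%), with SEC11C at 0.41 ± 0.08 and SPCS1 at -0.31 ± 0.08 beside those named.

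In ER-associated degradation 0 of 13 measured genes were called by limma in P114 over CMT-U335 (2 at an unadjusted p under 0.05, 2 by the SAM-type test) or in P114 over CMT-U229 (1 and 0). Of all genes 22.3% and 7.3% were called in these pairs. In CMT-U229 over CMT-U335 2 rose (15.4%, against 8.77% of all genes) and 1 fell (7.69%, against 8.58%). The ubiquitin ligase SYVN1 rose at 0.27 ± 0.07 as the mean of 2 probes that disagreed (0.50, adjusted p = 0.00856, and 0.04, adjusted p = 0.873), and SELENOK rose at 0.40 ± 0.09 in CMT-U229 over CMT-U335, where the ligase RNF139 fell to -0.64 ± 0.06. Of 28 sensors and factors of the unfolded protein response only 6 were on the array. Beside XBP1, ASNS, which encodes asparagine synthetase, fell to -0.55 ± 0.11 in P114 over CMT-U335, and ATF4, the factor of the PERK branch, was at 0.08 ± 0.10 in that pair and was not called.

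The genes known as targets of XBP1 or ATF6 were counted apart from the 4. Of 18 measured, 1 rose in P114 over CMT-U335 (SPCS2). In P114 over CMT-U229 0 were called (3 at an unadjusted p under 0.05, 0 by the SAM-type test), against 7.3% of all genes. In CMT-U229 over CMT-U335 2 rose (HSP90B1, and SYVN1 through 1 of its 2 probes). There the HSP90B1 probes had adjusted p = 0.0515, 0.0315, 0.0395 and 0.361 in limma on single probes. SPCS2 was not called there, as the mean of 2 probes that disagreed (0.80, adjusted p = 0.00647, and -0.41, adjusted p = 0.49). The share that rose in P114 over CMT-U335 and CMT-U229 over CMT-U335, 5.56% and 11.1%, stood beside 7.89% and 8.77% of all genes. The targets' medians were 0.11 and 0.08, and the highest was HSP90B1, at 0.64 and 0.67, below HSPA5, PDIA3 and XBP1 in both pairs.

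**Figure D3:**
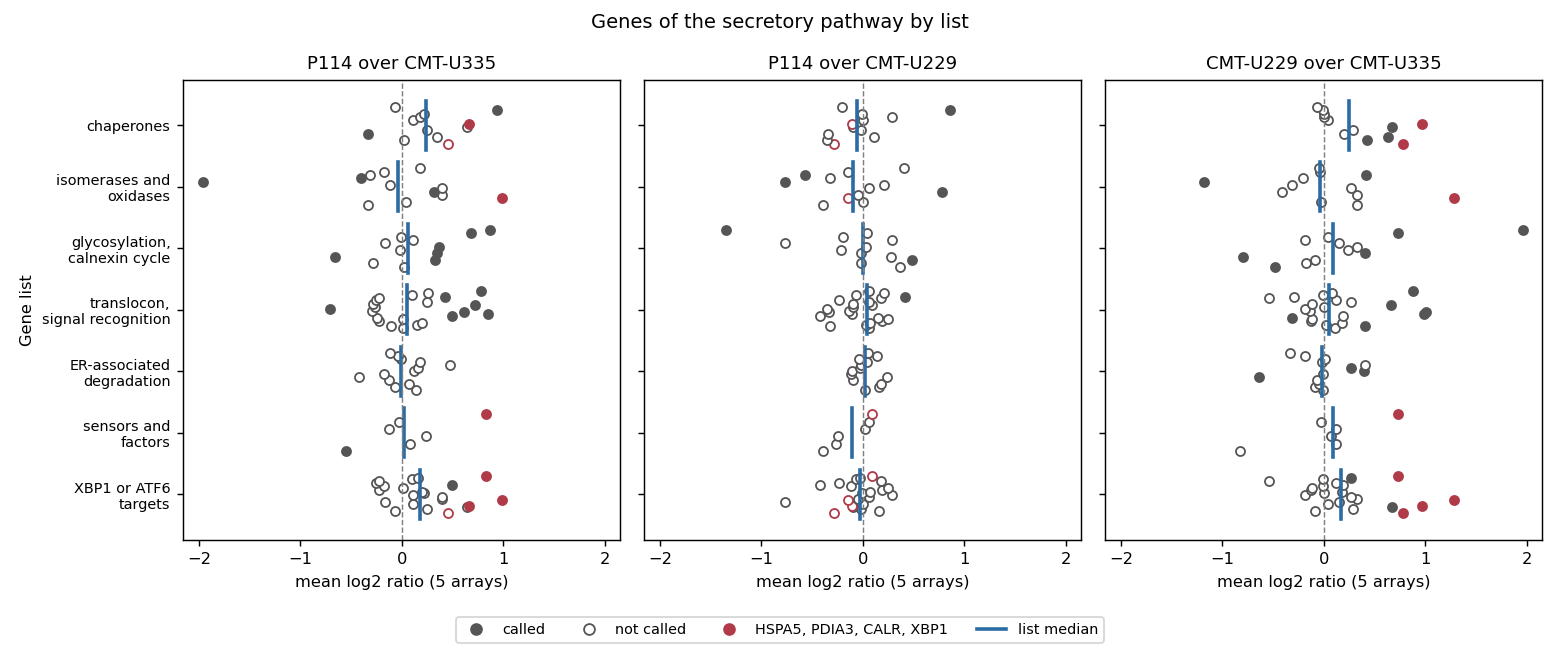
Mean log2 ratio over 5 arrays (horizontal axis) of each measured gene of 7 lists (rows) in each pair of lines, filled where called, red for HSPA5, PDIA3, CALR and XBP1, with the median of each list as a blue bar. In P114 over CMT-U335 and CMT-U229 over CMT-U335 the red points lie to the right of most genes of their lists, with PPIC at -1.96 far to the left in P114 over CMT-U335 and TUSC3 at 1.96 far to the right in CMT-U229 over CMT-U335.

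Calls of the list genes beside the 4 held to different degrees when an array was left out, a dye term was added or the apparent dye swaps were averaged. In P114 over CMT-U335 11 of 19 called list genes kept the call throughout, SPCS3, TRAM1, SERPINH1 and PPIC among them, while 8 lost it with some array left out and 6 with swaps averaged. In P114 over CMT-U229 1 of 7 kept it throughout (TUSC3), while 4 and 6 lost it in these ways. For CMT-U229 over CMT-U335 7 of 19 kept it throughout, while 9 and 11 lost it.

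Other cell types were looked for by their markers. Of 7 leukocyte and plasma cell markers only JCHAIN, the joining chain of secreted immunoglobulins, was on the array. It rose in P114 over CMT-U335 at 0.77 ± 0.13 (SE, n = 5, adjusted p = 0.00501) and in P114 over CMT-U229 at 0.61 ± 0.08 (adjusted p = 0.00602), and was at 0.15 ± 0.13 in CMT-U229 over CMT-U335, where XBP1 was at 0.73. The part of plasma cell transcripts in the XBP1 ratios was not tested. Of 8 luminal genes often found with XBP1 in human mammary tumours only TFF3 was on the array, at 0.02 ± 0.12, -0.07 ± 0.11 and -0.06 ± 0.10 in P114 over CMT-U335, P114 over CMT-U229 and CMT-U229 over CMT-U335, and it was not called.

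For each of the 4 genes, the 5 named genes with the most similar pattern over 15 arrays were found by Pearson's r among 5244 genes, as a description. The genes nearest to HSPA5 were GABARAPL1 (r = 0.95), NUPR1 (0.91), EIF3F (0.91), SSBP2 (0.89) and SMYD5 (0.89). GABARAPL1 encodes an autophagy protein of the ATG8 family, and NUPR1 a chromatin-linked protein induced by cell stress. GABARAPL1 shared the lone low array of HSPA5, with -0.04, -0.14, 0.10, -1.79 and -0.11 in P114 over CMT-U229, and NUPR1 had -0.01, 0.65, 0.14, -1.10 and 0.31 there. Replicate 4 of that pair was the lowest for all 3 genes. These genes were picked by likeness over the same arrays, so a shared low array is part of the choice and no separate result.

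The genes nearest to XBP1 were PTPN13 (r = 0.88), PEX19 (0.87), UTP3 (0.86), ATF4 (0.86) and CLINT1 (0.86). ATF4 had 0.36, -0.53, 0.48, -0.98 and -0.64 in P114 over CMT-U229, so it was high on replicates 1 and 3 and lowest on replicate 4, as XBP1 was. ATF4 too was picked by its likeness over these arrays. Its mean ratio in the other 2 pairs was 0.08 and 0.12, whereas that of XBP1 was 0.83 and 0.73.

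The genes nearest to PDIA3 were DKK3 (r = 0.95), SLC5A6 (0.94), LEPROTL1 (0.94), SRPX (0.93) and RPS27A (0.93), none of them on the lists. DKK3, of the Dickkopf family of secreted proteins, had means of 1.18, -0.51 and 1.64 in P114 over CMT-U335, P114 over CMT-U229 and CMT-U229 over CMT-U335, and PDIA3 had 0.99, -0.15 and 1.28. The genes nearest to CALR were INPPL1 (0.91), OAZ1 (0.90), HSP90B1 (0.90), USP7 (0.89) and APP (0.88). HSP90B1 was the only list gene other than ATF4 among the 20, and like CALR it encodes a calcium-binding protein of the ER lumen.

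**Figure D4:**
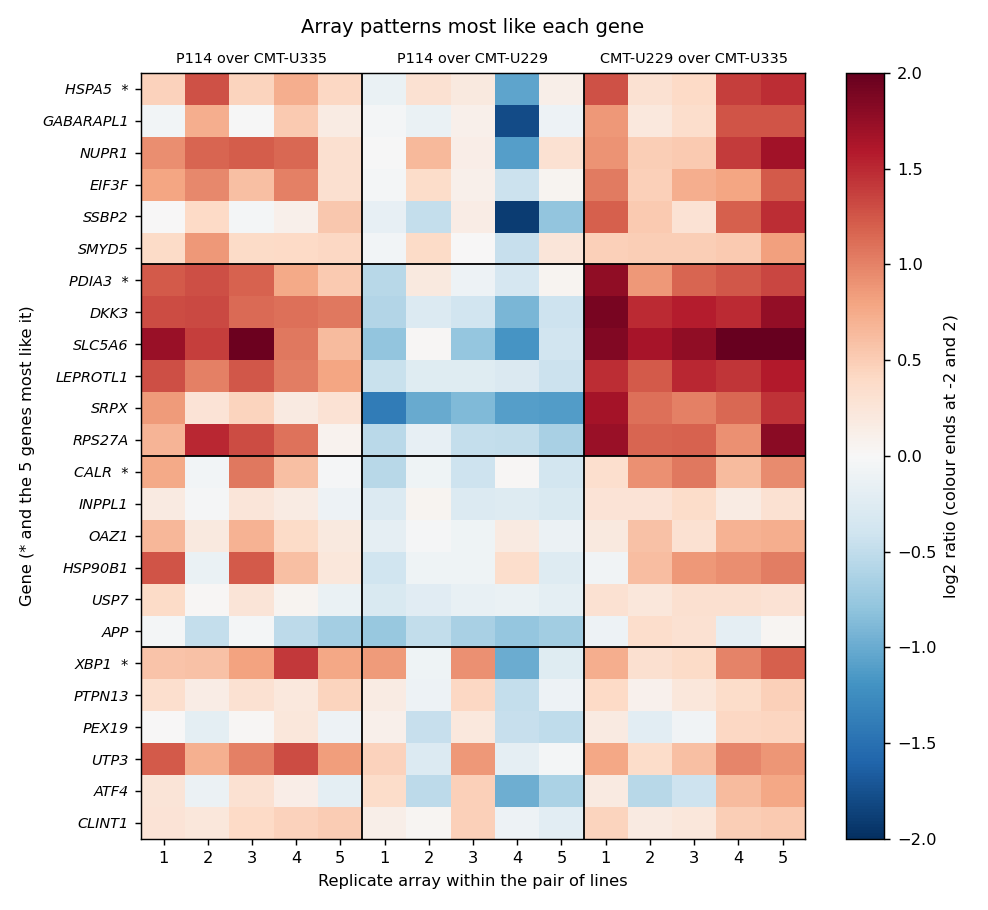
Log2 ratio on each array (columns, replicates 1 to 5 of each pair of lines) of HSPA5, PDIA3, CALR and XBP1 (marked *) and of the 5 genes with the most similar pattern to each (rows), with colour from -2 to 2. Replicate 4 of P114 over CMT-U229 is dark blue for HSPA5 (-1.05) and GABARAPL1 (-1.79), and XBP1 and ATF4 change sign among the 5 arrays of that pair.

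The 4 genes lie on dog chromosomes 9 (HSPA5), 30 (PDIA3), 20 (CALR) and 26 (XBP1) by RefSeq (assembly UU_Cfam_GSD_1.0), used here for names and neighbours only. The 5 nearest measured genes on each side of each were compared, as a description. Around HSPA5 ratios were near 0: its 10 neighbours lay between -0.38 and 0.13 in P114 over CMT-U335 and between -0.23 and 0.19 in CMT-U229 over CMT-U335. Of these neighbours 0 were called in any pair by limma or the SAM-type test. In P114 over CMT-U335, P114 over CMT-U229 and CMT-U229 over CMT-U335 0, 1 and 1 had an unadjusted p under 0.05. Limma called 22.3%, 7.3% and 17.3% of all genes in these pairs. The nearest on either side were MAPKAP1 (-0.38 in P114 over CMT-U335 and 0.10 in CMT-U229 over CMT-U335) and RABEPK (0.02 and -0.23).

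Beside XBP1 the nearest measured genes were near 0 in P114 over CMT-U335 and CMT-U229 over CMT-U335. They were TFIP11 (0.04 and 0.06) and EWSR1 (0.12 and 0.02). Of the 10 neighbours of XBP1 limma called only UQCR10, at -0.36 and -0.63 in these pairs. The SAM-type test called 2 neighbours in P114 over CMT-U335, 0 in P114 over CMT-U229 and 1 in CMT-U229 over CMT-U335. In that order 2, 3 and 1 had an unadjusted p under 0.05, and limma called 22.3%, 7.3% and 17.3% of all genes. UQCR10 and the neighbours named below beyond the nearest were picked out after their values were seen.

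PDIA3 was flanked by LOC478277 (0.11 in P114 over CMT-U335 and 0.08 in CMT-U229 over CMT-U335) and by SERF2, which rose in both pairs (0.73 and 0.85) and was at -0.09 in P114 over CMT-U229, as PDIA3 was at -0.15. The called neighbours PPIP5K1 and MAP1A did not follow PDIA3. PPIP5K1 was at 0.72 in P114 over CMT-U335 and 1.12 in P114 over CMT-U229, both called. MAP1A was called lower at -0.94 in P114 over CMT-U335 and -0.74 in CMT-U229 over CMT-U335. The measured genes between SERF2 and B2M were not called in any pair. They were at -0.12 to 0.05 in P114 over CMT-U335, -0.33 to -0.18 in P114 over CMT-U229 and 0.28 to 0.31 in CMT-U229 over CMT-U335. Of the 10 neighbours of PDIA3, 5, 5 and 7 had an unadjusted p under 0.05 in these pairs, as did 1751, 1000 and 1514 of 5246 genes. B2M, the light chain of class I molecules, was at 0.62, -1.96 and 2.32 in P114 over CMT-U335, P114 over CMT-U229 and CMT-U229 over CMT-U335, all called. Its signs in the 3 pairs were those of the PDIA3 means, but the sign of PDIA3 in P114 over CMT-U229 was not resolved (interval -0.44 to 0.14). CALR was flanked by TRMT1 (0.02, -0.26 and 0.16 in the 3 pairs) and SYCE2 (-0.01, -0.03 and 1.39), none called, and the immediate early gene IER2 was at 1.31 in P114 over CMT-U335 and 1.05 in CMT-U229 over CMT-U335, both called.

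**Figure D5:**
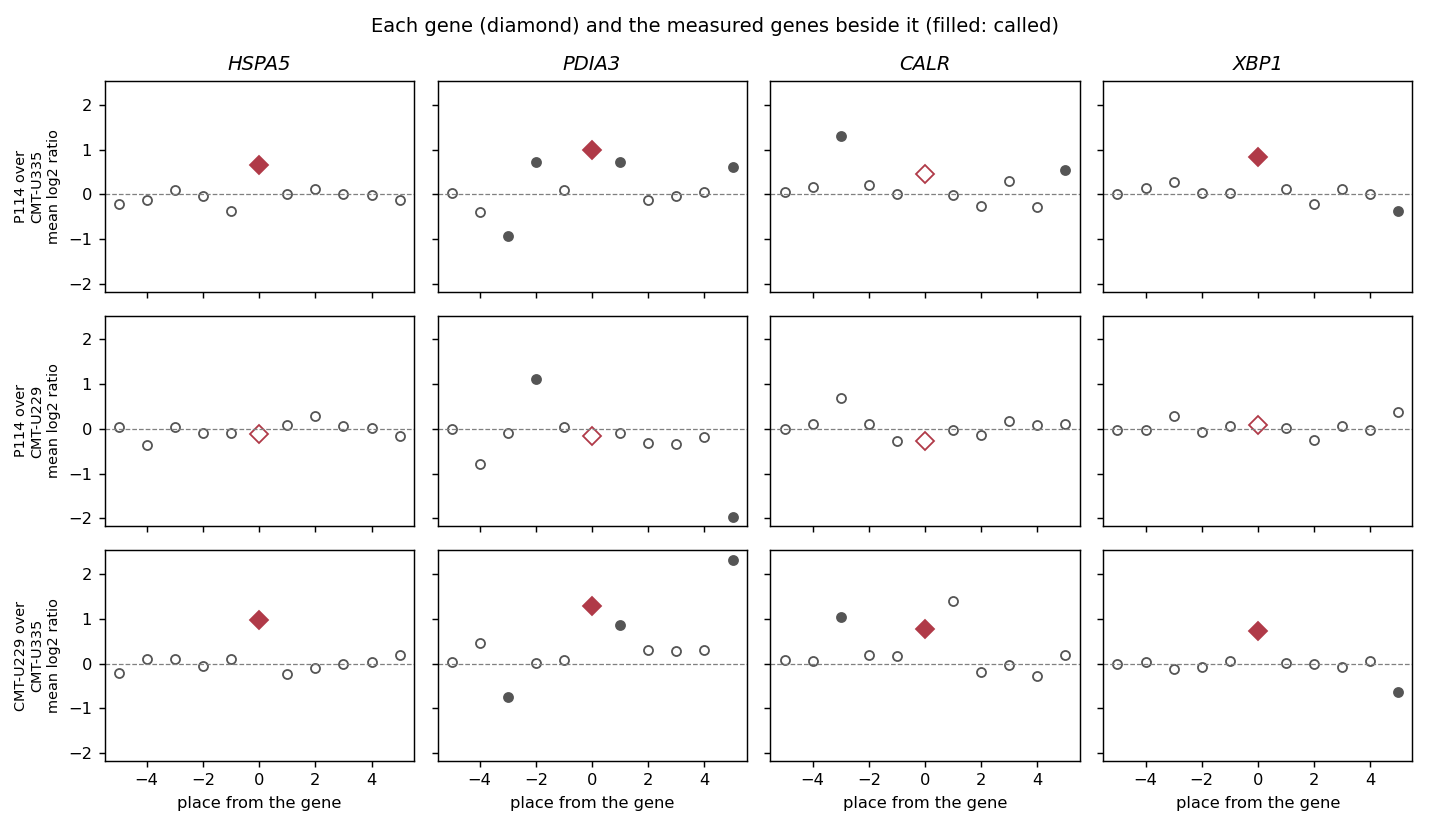
Mean log2 ratio over 5 arrays (vertical axis) of each of the 4 genes (diamond, place 0) and of the 5 nearest measured genes on each side (circles, by place along the chromosome), filled where called, with a row for each pair of lines. HSPA5 at 0.66 and 0.97 and XBP1 at 0.83 and 0.73 stand above all 10 neighbours in P114 over CMT-U335 and CMT-U229 over CMT-U335, whereas PDIA3 has SERF2 at 0.73 and 0.85 beside it.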

How the data were processed

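RNA from the lines was amplified by T7 transcription, coupled to Cy3 or Cy5 and hybridised in pairs, per the labels' protocols. The authors deposited log2 ratios, log transformed and normalized per the series design text, while no source used here gives the normalization method, the log base or the numerator. Base 2 was assumed, since the largest value, 12.43, would be 249732-fold as a natural log, beyond the 65536 of a 16-bit scan. Of 22176 probes 7694 had 1 symbol in the platform annotation, 0 had several and 14482 had none. Symbols of 7340 probes were updated through Entrez identifiers. Arrays were turned by their dyes to the order of the pair, and probes of a gene were averaged. The table lacked 2 values, and genes measured on fewer than 3 of 5 arrays were dropped.

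The 5 arrays of each pair were fitted in limma 3.58.1, R 4.3.3 (lmFit, eBayes, mean against 0, two-sided, Benjamini-Hochberg over 5246 genes), tested on simulated data. The study used SAM. Same-numbered arrays of different pairs deviated together with r of -0.25 to 0.33, so replicate numbers do not pair them. Apparent dye swaps were sought among all splits of 5 arrays into 2 couples of opposite dyes and a single array, using genes whose SD exceeded 0.5 and whose mean dye effect in the other pairs was under 0.1. An earlier form of this rule, without the opposite dyes and with the dye effect limited in each other pair, was replaced after its results for the 4 genes had been seen, and is kept as an alternative. Named genes were the 4 genes, called list genes, the 5 most similar genes and the nearest neighbours, with exceptions named in the text. The 4 genes and the lists were chosen with earlier results of these data known. No sequences are shown because no sequence table was used here.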

Additional observations from a re-analysis of the deposited data

Results flagged for a closer look

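In 9 of 116 groups of 5 arrays examined, 1 array stood apart from the other 4 by more than 0.71 of the group's range, the 95% limit of Dixon's test, where chance gives about 1 in 20. XBP1 was 1 of them, at 1.42 on replicate 4 of P114 over CMT-U335 with the nearest array at 0.81. In that pair TUSC3 was at 1.62 on replicate 2 (nearest 0.75), SMYD5 at 0.87 on replicate 2 (nearest 0.42) and SRP54 at -1.10 on replicate 3 (nearest -0.68). In P114 over CMT-U229 GABARAPL1 was at -1.79 on replicate 4 (nearest -0.14), SERPINH1 at 0.60 on replicate 4 (nearest 0.89), PDIA5 at 0.28 on replicate 1 (nearest 0.84) and INPPL1 at 0.06 on replicate 2 (nearest -0.26). In CMT-U229 over CMT-U335 SMYD5 was at 0.82 on replicate 5 (nearest 0.52). Without its array XBP1 averaged 0.69 and kept its call (limma, adjusted p = 0.00459).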

How the results depend on the processing

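The 4 genes in 3 pairs kept direction and call in 210 of 228 repeats with another setting. That count includes repeats that could not move a ratio. The median of probes, platform symbols and other minimum numbers of arrays leave a gene of 1 probe with all values as it was. A gene not called in a pair counts as kept where it stayed not called. PDIA3 kept both in every repeat of P114 over CMT-U335 and CMT-U229 over CMT-U335, with adjusted p up to 0.0126 and 0.0156. In P114 over CMT-U335 CALR was called in the fit over all 15 arrays (0.46), in the loop fit (0.48) and with the couples of the earlier rule (0.51, adjusted p = 0.0368), and was not with couples of opposite dyes (adjusted p = 0.257). That rule joined replicates 2 and 3, which have the same dye order. With the replicate block over all 15 arrays HSPA5 lost its call in P114 over CMT-U335 (0.66, adjusted p = 0.0599) and XBP1 in CMT-U229 over CMT-U335 (0.73, adjusted p = 0.0662). The block changed no other call of the 4 and moved genes called to 1172, 515 and 920 in P114 over CMT-U335, P114 over CMT-U229 and CMT-U229 over CMT-U335. With couples averaged, by either rule, HSPA5 (1.02), CALR (0.70) and XBP1 (0.73) lost their calls in CMT-U229 over CMT-U335 and XBP1 was at -0.09 in P114 over CMT-U229. Leaving out 1 array moved HSPA5 in CMT-U229 over CMT-U335 between 0.84 and 1.14, and in P114 over CMT-U229 HSPA5 between -0.22 and 0.12 and XBP1 between -0.12 and 0.36. The cause was not tested.

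Genes called in P114 over CMT-U335 numbered 1169, or 1757 in the loop fit and 642 at adjusted p under 0.01. List genes, the 4 included, numbered 22 there, or 38, 12 and, at 0.1, 36. In P114 over CMT-U229 383 genes became 650 in the 15-array fit, 1056 in the loop fit, 79 with couples averaged, 159 at 0.01, 578 at 0.1 and 202 to 408 with 1 array left out. The 7 list genes there became 15, 21, 1, 3, 13 and 3 to 7. In CMT-U229 over CMT-U335 910 genes became 1445 in the loop fit, 410 with couples averaged, 470 at 0.01 and 571 to 863 with 1 array left out, and 23 list genes became 9 with couples averaged, 12 at 0.01 and 14 to 22 with 1 array left out. Fewer values enter the fits with couples averaged or an array left out. Gaps in the loop of the 4 genes kept call and direction under the 5 alternatives run, and the r of the most similar gene was rerun only with array medians at 0, where it was the same to 2 decimals.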
